A study of Rattus norvegicus with 9 samples.

Results

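The 41 genes described here are those of the endothelial cells that line the blood vessels of the brain and spinal cord, of the pericytes wrapped around them, and of the blood-brain barrier that these cells form together. The genes were taken by symbol from the deposited table of counts, and 39 of the 41 stood on a row of that table, which has 30507 rows. The other 2, Ocln and Slco1a4, were not analysed here. Foxq1 stood on 2 rows, and the row with counts was used. By role, the 39 genes were 5 of endothelial junctions, 9 of angiogenic signaling, 4 of mural cells (pericytes and vascular smooth muscle), 6 of transport across the barrier, 4 of the endothelial surface and storage granules, 6 transcription factors and 5 of leukocyte adhesion.

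RNA was sequenced from whole T9 to T11 spinal cord segments of 9 wild-type female Sprague-Dawley rats at 35 days post-injury (dpi). Each of the 3 groups (Sham, SCI, and SCI + SCS) had 3 rats, all 8 weeks old at the start. Sham rats had the laminectomy without contusion or electrode, although their labels call them untreated. SCI rats had a T10 contusion and carried a plug on the neck with no electrode. SCI + SCS rats had the contusion and an epidural electrode, through which current was passed for 2 h daily from 1 dpi (10 kHz, 30 µs pulses, 0.12 mA). The electrode and the current therefore differ together between SCI + SCS and SCI and cannot be told apart. All rats used for RNA were perfused with saline, which washes blood out of the vessels. The comparison of SCI with Sham asks what remains of the injury in the vascular genes at this late time, and that of SCI + SCS with SCI asks whether stimulated rats differed.

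In the brain and spinal cord, endothelial cells are joined by claudin-5, VE-cadherin and ZO-1 into a continuous seal, carry glucose, amino acids, hormones and lipids through dedicated transporters, and let few vesicles and few leukocytes pass. Pericytes hold this state through PDGF-B, which the endothelium releases, and its receptor PDGFRβ, while Wnt signals acting through LEF1 and the factors FOXQ1 and SOX17 switch on the barrier genes. After a contusion, vessels at the lesion break and regrow, and PDGFRβ-positive cells of the vessel wall and of the meninges build a fibrotic scar. As these are bulk samples, fewer cells of a type and less RNA per cell cannot be told apart.

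The promoters of 4 members are shown first. Icam1, Vcam1 and Sele are of leukocyte adhesion, the role with the highest median difference between SCI and Sham. Induction of such genes by NF-κB, one of the pathways that the study was about, is textbook knowledge. Pdgfb is of angiogenic signaling, and is shown as the only other member with a match to the motif below. The promoters are RefSeq sequences of 300 bases on the rat build GRCr8, from 250 bases before to 50 bases after the start of the gene, and 25 of the 39 genes matched one. Capitals mark matches to GGNNTTTCC, an NF-κB-like motif read on both strands.
Icam1 (chr8:27829595-27829894, plus strand): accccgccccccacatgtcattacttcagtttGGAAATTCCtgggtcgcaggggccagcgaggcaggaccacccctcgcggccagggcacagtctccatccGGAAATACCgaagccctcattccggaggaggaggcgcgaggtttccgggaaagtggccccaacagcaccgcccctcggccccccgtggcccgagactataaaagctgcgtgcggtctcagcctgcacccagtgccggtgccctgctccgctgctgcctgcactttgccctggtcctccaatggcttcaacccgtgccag
Vcam1 (chr2:206742734-206743033, minus strand): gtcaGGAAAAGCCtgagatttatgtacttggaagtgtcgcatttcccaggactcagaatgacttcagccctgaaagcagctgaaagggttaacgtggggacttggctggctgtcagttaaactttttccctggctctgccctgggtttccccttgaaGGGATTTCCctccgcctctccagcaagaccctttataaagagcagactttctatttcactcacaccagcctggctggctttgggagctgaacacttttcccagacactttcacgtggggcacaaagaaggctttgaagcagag
Pdgfb (chr7:113438294-113438593, minus strand): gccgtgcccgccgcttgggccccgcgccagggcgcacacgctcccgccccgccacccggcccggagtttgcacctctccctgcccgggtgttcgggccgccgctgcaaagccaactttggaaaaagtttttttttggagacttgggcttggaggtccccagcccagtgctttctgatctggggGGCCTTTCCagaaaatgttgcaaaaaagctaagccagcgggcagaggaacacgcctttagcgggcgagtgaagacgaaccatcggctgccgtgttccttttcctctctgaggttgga
Sele (chr13:78936264-78936563, plus strand): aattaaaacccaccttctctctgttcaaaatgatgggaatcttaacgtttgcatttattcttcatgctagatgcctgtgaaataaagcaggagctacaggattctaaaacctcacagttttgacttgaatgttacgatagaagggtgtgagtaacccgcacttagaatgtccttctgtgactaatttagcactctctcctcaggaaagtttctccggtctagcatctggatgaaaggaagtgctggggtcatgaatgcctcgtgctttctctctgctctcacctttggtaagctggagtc
Icam1 held 2 matches that begin 218 and 149 bases before the start, Vcam1 2 at 246 and 93 bases and Pdgfb 1 at 67 bases. The 300 bases printed for Sele held none. Whether those bases are the promoter that Sele uses was not checked, so their lack of a match says nothing of that promoter. Icam1, Vcam1 and Pdgfb were the only ones of the 25 genes with a match, against 6.05% of all 33469 promoters of the same length. The ETS core AGGAAG, shared by endothelial transcription factors of that family such as ERG, stood on either strand in 9 of the 25 genes and in 34.5% of all promoters. A match is a description of letters, and says nothing of binding.

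Library totals lay between 62844376 and 88358570 counts, and 3 counts corresponded to between 0.0341 and 0.04698 CPM (counts scaled to a common library size over the 9 libraries). The markers of other cells in the tissue differed by group. Summed fibroblast and meningeal markers (10 genes, among them Col1a1 and Ptgds) were at 1065, 5059 and 10676 CPM in Sham, 17720.5, 15460.5 and 37565 in SCI and 16150.0, 10341 and 8206 in SCI + SCS. Ptgds alone made up most of this sum in every library. It was at 642, 3792 and 8595 CPM in Sham, 14126, 10390 and 32062 in SCI and 12399, 8120 and 5767 in SCI + SCS. In edgeR's quasi-likelihood test of SCI against Sham, Ptgds was not called (adjusted p = 0.0916), while 7 of the 10 markers were called higher. Summed macrophage and microglial markers (8 of 9 with a row) were at 185, 326 and 525 CPM in Sham, 2685, 3826 and 3385 in SCI and 1964, 2131 and 1961 in SCI + SCS. Neuronal markers went the other way, at 3749.9 to 8203 CPM in Sham, 509 to 1784 in SCI and 1611 to 2769.9 in SCI + SCS. Endothelial identity was present in every library, with Cldn5 at 137 CPM or more. Skeletal muscle markers (8 of 12 with a row) were at 3604 CPM in SCI replicate 1 and 1031 in SCI replicate 3, against 24.02 in SCI replicate 2 and 35.7 to 127 in the 6 other libraries.

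The Sham rats were not alike in these genes. The ratio of the highest to the lowest Sham library had a median of 1.32 over the 38 members with counts in all 3, and was at least 2 for 7 of them, namely Cdh5, Kdr, Angpt1, Angpt2, Pdgfrb, Anpep and Icam1. Cdh5 varied most, by 3.03 times, and Emcn least, by 1.03 times. In these 7 and in Tjp1, Notch3, Emcn, Cd34 and Selp, which makes 12 members, the level followed the order of the fibroblast and meningeal sum across the 3 Sham libraries. That order is replicates 1, 2 and 3. The macrophage and microglial, smooth muscle, Schwann cell, astrocyte and oligodendrocyte sums rose in it too, and the neuronal sum fell. The order therefore singles out no cell type, and the share of all genes that follow it is not given here. The fibroblast and meningeal sum was above the Sham range in all SCI libraries, so it moves with the injury as well as within Sham. Its part in the results below was not tested.

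**Figure D1:**
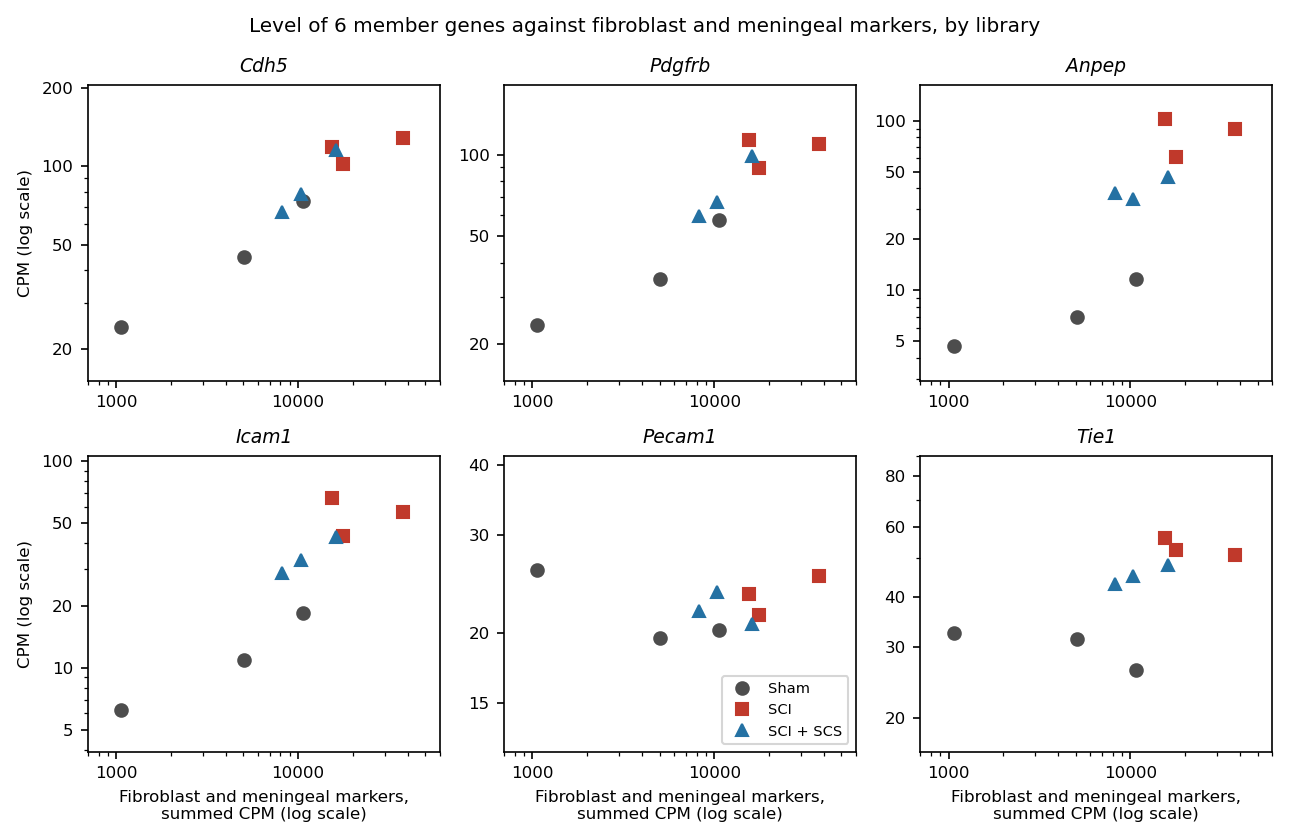
Level of 6 member genes in each of the 9 libraries (CPM, log scale) against the summed CPM of 10 fibroblast and meningeal markers in the same library (log scale). Most of that sum is Ptgds. Circles are Sham, squares SCI and triangles SCI + SCS. Cdh5, Pdgfrb, Anpep and Icam1 are higher in the Sham libraries with a higher sum, from 24.2 to 73.5 CPM for Cdh5, while Pecam1 and Tie1 are not.

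Per unit of length, the members spanned from Bsg, at a mean of 329.6 ± 8.93 FPKM (SD, n = 3) in Sham, to Selp, at 0.0159 ± 0.0158 FPKM. Bsg encodes basigin, an immunoglobulin-family protein of barrier endothelium that other cells also make. The next were the glucose transporter Slc2a1, at 84.9 ± 8.91 FPKM, and Cldn5, at 34.2 ± 4.24. The 4 that followed, Slco1c1, Slc7a5, Tjp1 and Mfsd2a, had Sham means between 16.8 and 21.9 FPKM, and the mean ± SD ranges of neighbours overlapped. Both selectins lay apart at the bottom of the order, Sele at 0.0868 ± 0.0228 FPKM, while the other 37 members were at 1.66 FPKM or more. Anpep lay near the bottom of the order in Sham, at 1.89 ± 0.861 FPKM, and near the top in SCI, at 20.6 ± 6.59 FPKM.

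**Figure D2:**
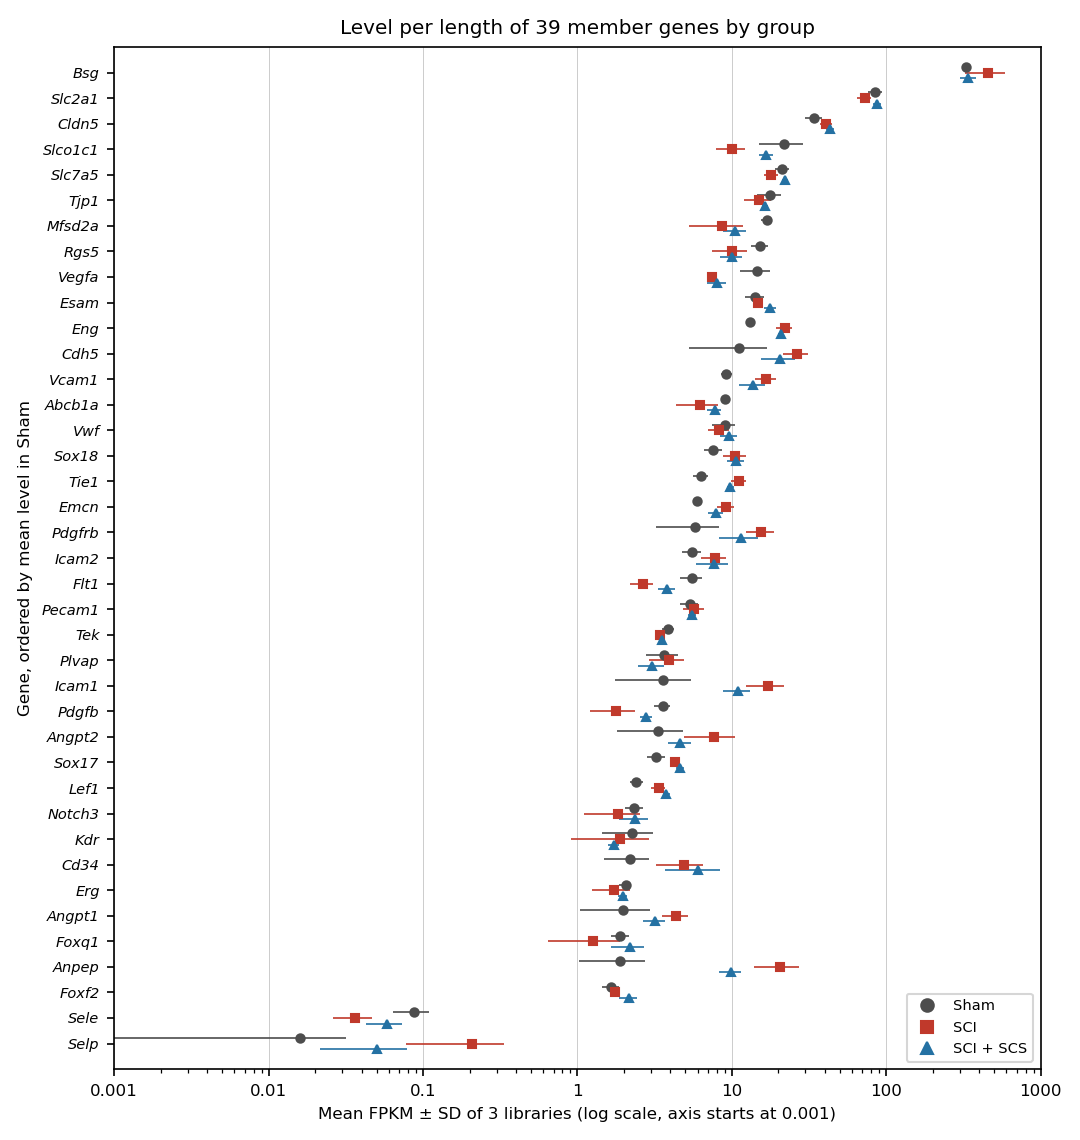
Mean FPKM (log scale, axis from 0.001) of the 39 members in Sham (circles), SCI (squares) and SCI + SCS (triangles), with bars for the SD of 3 libraries, ordered by the Sham mean. Bsg is highest at 329.6 FPKM in Sham and Selp lowest, and among the members with a Sham mean of 1.66 FPKM or more, Anpep has the largest ratio of SCI to Sham.

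Compared with the Sham group, 13 of the 39 members (33.3%) were upregulated in the SCI group and 7 (17.9%) downregulated, while 19 did not pass the test. Calls are at a Benjamini-Hochberg adjusted p under 0.05 in edgeR's quasi-likelihood test over all genes, and every adjusted p below is of that kind unless another tool is named. Values after ± are the SE of the log2FC, or the SD where that is said. Among all 17822 genes tested, 24.3% were higher and 25.0% lower at that threshold, so the members' shares lay somewhat above and below the background. With a fold of more than 2 required as well, 8 members were higher and 3 lower, against 13.4% and 13.6% of all genes. The median log2FC of the members was 0.08 and that of all genes 0.02. The higher genes were mostly of leukocyte adhesion, angiopoietin and TGF-β receptor signaling and mural cells, and the lower ones of transport and of VEGF and PDGF-B signaling. The shares of all genes, 24.3% higher and 25.0% lower, apply to every count by role or list below. A role holds 4 to 9 members, and no role's count was tested against those shares. The counts rested on single libraries. Without Sham replicate 2, 7 members were higher and 4 lower, without SCI replicate 2, 7 were higher, and without SCI replicate 3, 8 were higher and 3 lower, while 4 were lower without Sham replicate 1.

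**Figure D3:**
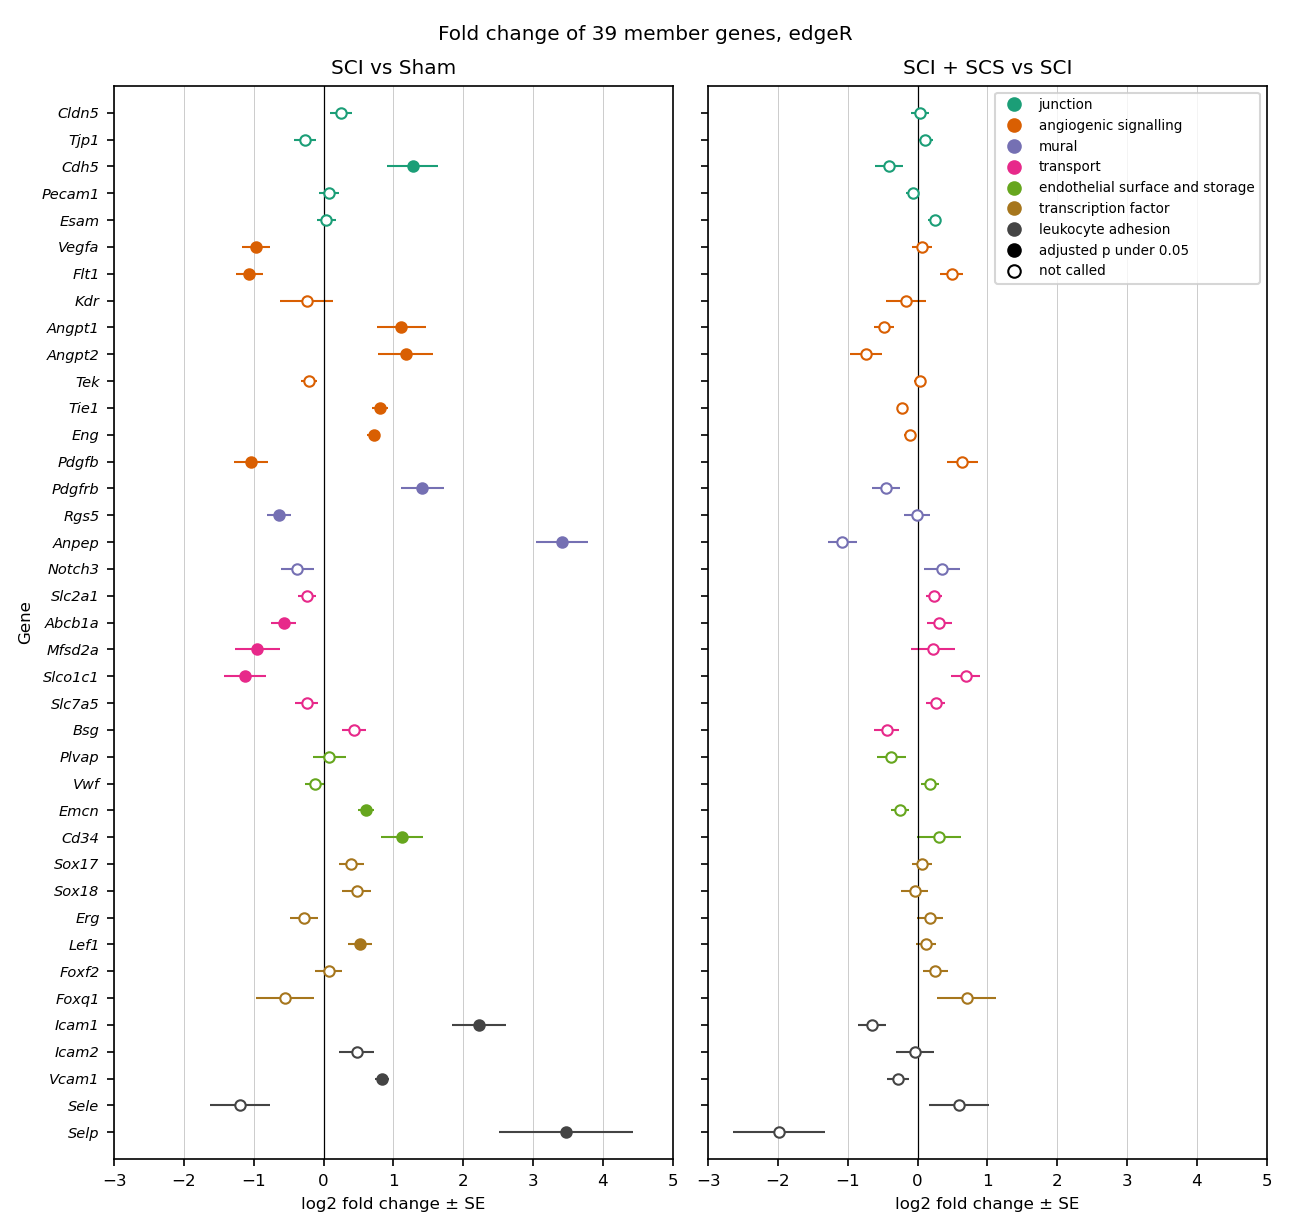
Log2 fold change ± SE (edgeR) of the 39 members in SCI against Sham and in SCI + SCS against SCI, 3 libraries a group, colored by role; filled points passed an adjusted p of 0.05. In SCI against Sham 13 members are filled to the right of 0 and 7 to the left, and in SCI + SCS against SCI no point is filled.

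**Figure D4:**
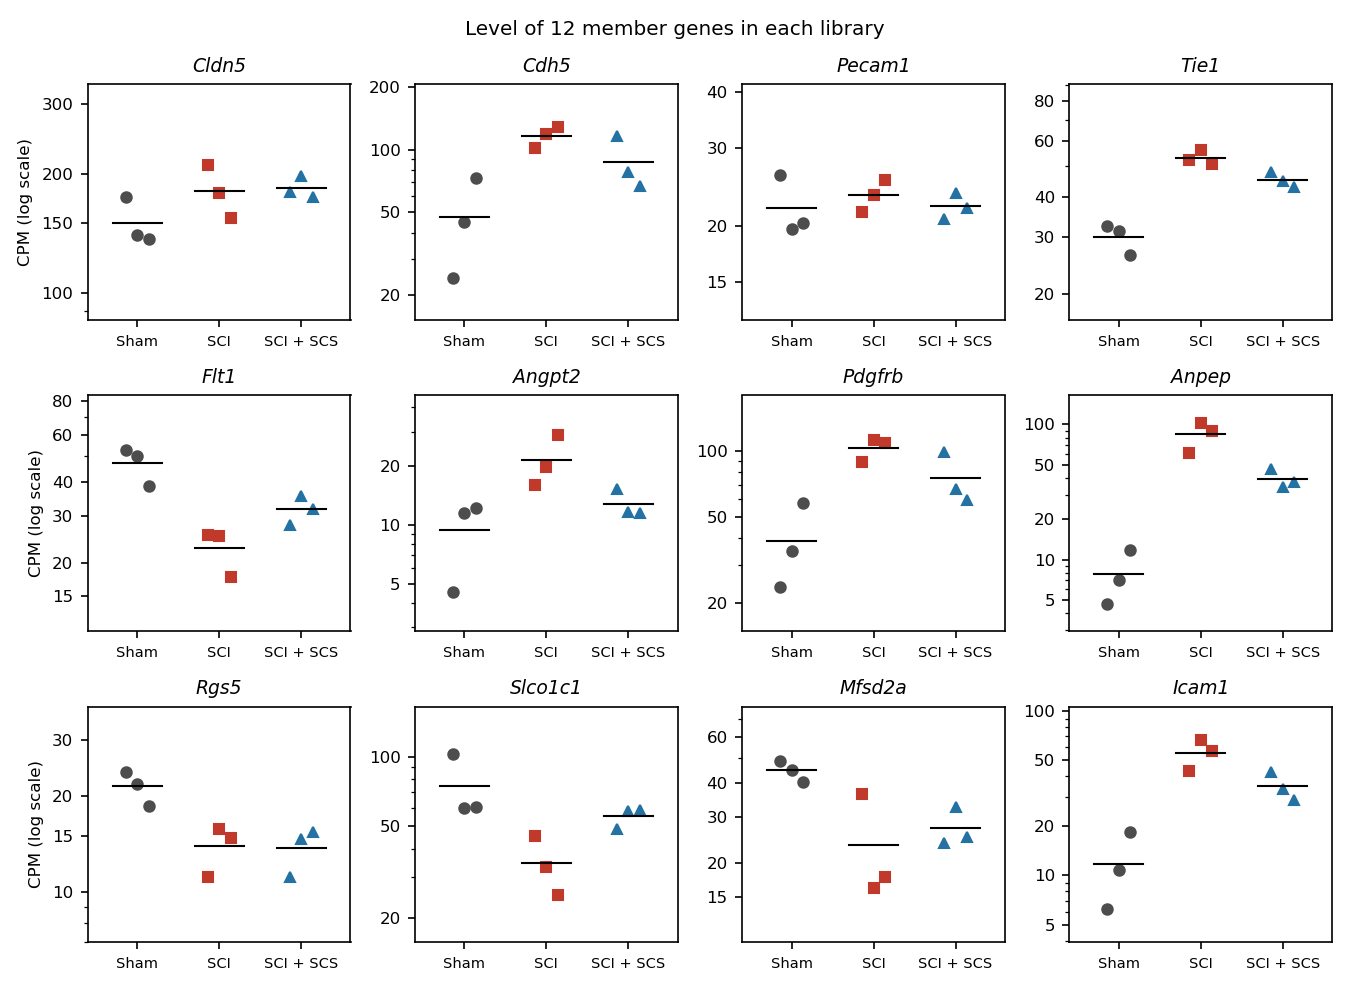
Level (CPM, log scale) of 12 members in the 3 libraries of each group, with a line at the mean; points stand from left to right as replicates 1 to 3. Anpep, Icam1, Pdgfrb and Tie1 lie higher in every SCI library than in every Sham library, Flt1, Rgs5, Slco1c1 and Mfsd2a lie lower, and Pecam1 and Cldn5 overlap.

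Of the 5 junction genes, 1 was called, higher in SCI, and 4 did not pass the test. Cdh5 (ENSRNOG00000013324, chr19:815411-854368, minus strand, on mRatBN7.2) encodes VE-cadherin, the adhesive protein of endothelial adherens junctions. Its level, by replicate 1, 2 and 3, was 24.2, 44.9 and 73.5 CPM in Sham, 102, 119 and 128 in SCI and 116, 78.5 and 66.8 in SCI + SCS. Every SCI library lay above every Sham library, and the SCI + SCS libraries overlapped both groups. The gene was upregulated in SCI against Sham (log2FC 1.28 ± 0.37, adjusted p = 0.0273), but the call was lost without Sham replicate 2, SCI replicate 2 or SCI replicate 3 (adjusted p up to 0.0881 over 14 alternatives). The claudin of the barrier, Cldn5, was at 175, 140.1 and 137 CPM in Sham, 210.0, 179 and 155 in SCI and 180.2, 197 and 174 in SCI + SCS, and its groups overlapped. Its adjusted p in SCI against Sham was 0.229, and between 0.0698 and 0.526 over 14 alternatives. Pecam1, which encodes the platelet and endothelial adhesion protein CD31, was at 25.996, 19.7 and 20.3 CPM in Sham, 21.5, 23.5 and 25.3 in SCI and 20.8, 23.7 and 21.9 in SCI + SCS, with an adjusted p of 0.684. This gene, often used to count endothelium, varied over 1.32 times across the Sham rats alone. Tjp1, which encodes the scaffold ZO-1, was at 125, 139.6 and 177 CPM in Sham, 106, 134 and 130.5 in SCI and 128, 139 and 130.3 in SCI + SCS, with overlap of all groups. Esam, an endothelial adhesion gene, was not called either, and the 4 uncalled genes had log2FCs between -0.27 and 0.25.

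Of 16 other junction genes, 5 were higher and 4 lower in SCI than in Sham, shares near the 24.3% and 25.0% of all genes, with a median log2FC of 0.18. Gja4, a connexin of arterial endothelium, rose from 4.15 to 5.25 CPM in Sham to 8.71 to 11.6 in SCI (log2FC 1.03 ± 0.18, adjusted p = 0.00463). Lsr, angulin-1 of tricellular junctions, rose (log2FC 1.04 ± 0.23, adjusted p = 0.0119). Cldn12, a claudin, fell (log2FC -0.66 ± 0.10, adjusted p = 0.00289).

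Of the 9 angiogenic signaling genes, 4 were higher and 3 lower, against 24.3% and 25.0% of all genes. Of the VEGF genes, the ligand Vegfa and the receptor Flt1 were lower and the receptor Kdr was not called. Vegfa, the main growth factor of endothelium, which astrocytes and other cells release, was at 77.5, 62.5 and 48.3 CPM in Sham, 37.9, 30.9 and 28.6 in SCI and 29.2, 33.4 and 38.4 in SCI + SCS. All injured libraries lay below all Sham libraries (log2FC -0.97 ± 0.20, adjusted p = 0.00899). Flt1, its decoy receptor VEGFR1, was at 52.6, 49.9 and 38.6 CPM in Sham, 25.3, 25.1 and 17.8 in SCI and 27.7, 35.6 and 31.7 in SCI + SCS, with no overlap between any 2 of the groups, and fell (log2FC -1.07 ± 0.19, adjusted p = 0.00535). Kdr, the signaling receptor VEGFR2, overlapped across groups (log2FC -0.24 ± 0.38, adjusted p = 0.616). Pdgfb, which recruits pericytes, had its lowest levels in SCI and fell (log2FC -1.04 ± 0.24, adjusted p = 0.0134).

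Both angiopoietin genes were higher, while their receptor was not called. Angpt1, a ligand that steadies vessels and comes from mural and other cells, was at 4.902, 10.4 and 14.3 CPM in Sham, 18.99, 23.6 and 22.1 in SCI and 18.1, 13.8 and 14.03 in SCI + SCS. Angpt2, the counteracting ligand of activated endothelium, was at 4.56, 11.4 and 12.2 CPM in Sham, 15.96, 19.7 and 28.7 in SCI and 15.3, 11.6 and 11.5 in SCI + SCS. Both were higher in every SCI library than in every Sham library, and the lowest Sham level of each was that of replicate 1. Angpt1 was upregulated (log2FC 1.12 ± 0.36, adjusted p = 0.0391), and so was Angpt2 (log2FC 1.17 ± 0.40, adjusted p = 0.0464); both calls were lost without Sham replicate 2 or any 1 of the SCI libraries, and in limma on log2(FPKM + 1) without a filter (adjusted p = 0.0518 and 0.0751). That of Angpt2 was also lost without the filter on low counts (adjusted p = 0.0535). Tek, the receptor TIE2 for both, was at 20.04 to 24.6 CPM in Sham and 18.9 to 19.5 in SCI, with every SCI library below Sham (log2FC -0.21 ± 0.11, adjusted p = 0.175).

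A pair of endothelial receptors had the smallest SEs among the called genes of this role. Tie1, the co-receptor of TIE2, was at 32.6, 31.4 and 26.4 CPM in Sham, 52.5, 56.3 and 51.02 in SCI and 48.1, 45.1 and 43.2 in SCI + SCS. Eng, endoglin, a TGF-β co-receptor, was at 59.9, 54.8 and 60.6 CPM in Sham, 92.7, 98.5 and 100.2 in SCI and 91.9, 90.97 and 84.7 in SCI + SCS. The SCI libraries of both lay clear of the Sham libraries, and so did the SCI + SCS libraries. The log2FCs were 0.80 ± 0.12 (SE, adjusted p = 0.00289) for Tie1 and 0.71 ± 0.09 (adjusted p = 0.00206) for Eng, and both calls held with each library left out in turn. Tie1 did not follow the fibroblast and meningeal sum within Sham, where it was lowest in the library with the highest sum. Eng overlaps Fpgs on the other strand, and since it is not stated that counting used the strand, reads of these 2 genes cannot be told apart.

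Of 24 other angiogenic genes tested, 7 were higher and 6 lower, shares near those of all genes, with a median of 0.05. Acvrl1, which encodes ALK1, the receptor that works with endoglin, rose from 17.7 to 20.05 CPM in Sham to 29.2 to 32.97 in SCI (log2FC 0.75 ± 0.10, adjusted p = 0.00258). Adm, the vasodilator adrenomedullin, rose (log2FC 1.37 ± 0.26, adjusted p = 0.00641). Apln, the ligand apelin of sprouting endothelium, fell from 18.9 to 34.5 CPM to 7.08 to 10.2 (log2FC -1.79 ± 0.27, adjusted p = 0.00323), and S1pr1, a sphingosine phosphate receptor of endothelium and other cells, fell (log2FC -1.05 ± 0.15, adjusted p = 0.0029).

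The 4 mural genes did not move together, with 2 higher, 1 lower and 1 uncalled, against 24.3% of all genes higher and 25.0% lower. Anpep (ENSRNOG00000014610, chr1:133767332-133785789, minus strand, on mRatBN7.2) encodes aminopeptidase N, or CD13, a protein of pericytes and also of myeloid cells and fibroblasts, and changed more than any other member at a level above 1 CPM. It was at 4.698, 7.004 and 11.7 CPM in Sham, 61.1, 102 and 89.5 in SCI and 46.7, 34.5 and 37.7 in SCI + SCS. The 3 groups were separate from each other, with SCI highest (log2FC 3.42 ± 0.38, adjusted p = 0.00157). Pdgfrb, the PDGF-B receptor, was at 23.6, 34.8 and 57.6 CPM in Sham, 89.5, 113 and 109 in SCI and 99.1, 67.1 and 59.7 in SCI + SCS. It rose (log2FC 1.41 ± 0.31, adjusted p = 0.0107), with no overlap between SCI and Sham. Rgs5, a G protein regulator that in the cord marks pericytes, was at 23.8, 21.8 and 18.6 CPM in Sham, 11.1, 15.8 and 14.8 in SCI and 11.2, 14.6 and 15.4 in SCI + SCS, and fell (log2FC -0.64 ± 0.17, adjusted p = 0.0221). That call was lost without Sham replicate 1, Sham replicate 2, SCI replicate 1 or SCI replicate 3, and in limma on log2(FPKM + 1) without a filter (adjusted p = 0.0632). Notch3, the Notch receptor of mural cells, was at 18.3, 21.9 and 23.5 CPM in Sham, 13.3, 22.97 and 13.4 in SCI and 15.9, 24.4 and 22.4 in SCI + SCS, and overlapped between groups.

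Of 6 pericyte markers with a row outside the members, 1 was higher (Vtn, vitronectin) and 1 lower (Abcc9, a potassium channel subunit), with a median log2FC of 0.02. Among 15 other mural genes, 7 were higher and 2 lower, against 24.3% and 25.0% of all genes. Des, the filament desmin, rose from 11.6 to 16.9 CPM in Sham to 46.3 to 104.9 in SCI (log2FC 2.56 ± 0.33, adjusted p = 0.0021). Desmin is also a skeletal muscle protein, and Des was at 94.98 and 104.9 CPM in the 2 SCI libraries with high muscle markers and at 46.3 in the other. The part of muscle in the rise of Des was not tested. Tbx18, a mural transcription factor, rose (log2FC 1.77 ± 0.37, adjusted p = 0.00913). Abcc9 fell (log2FC -0.88 ± 0.23, adjusted p = 0.0194) and so did Heyl, a Notch target of mural cells (log2FC -0.78 ± 0.10, adjusted p = 0.00234). All 5 smooth muscle markers were higher, with a summed level of 165 to 273 CPM in Sham, 391 to 516 in SCI and 311 to 385 in SCI + SCS.

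Transport genes were the role in which members were lower and none was called higher, with 3 of 6 lower, against 25.0% of all genes. Slco1c1 (ENSRNOG00000009740, chr4:174466631-174513289, plus strand, on mRatBN7.2) encodes OATP1C1, which carries thyroxine into the brain. Its level was 103, 59.96 and 60.3 CPM in Sham, 45.2, 33.4 and 25.1 in SCI and 48.8, 58.3 and 58.96 in SCI + SCS. All SCI libraries lay below all Sham libraries (log2FC -1.13 ± 0.30, adjusted p = 0.021), and the call was lost without SCI replicate 2 or SCI replicate 3. Mfsd2a, which carries lysophospholipids with docosahexaenoic acid and holds vesicle transport low, was at 48.7, 45.03 and 40.6 CPM in Sham, 36.6, 16.1 and 17.9 in SCI and 23.8, 32.6 and 25.3 in SCI + SCS. Its SCI libraries were below Sham but far from each other, and replicate 1 lay nearest to Sham. Among the SCI libraries replicate 1 had the highest muscle, neuronal and oligodendrocyte markers. Replicate 3, also with high muscle markers, was at 17.9 CPM. The part of these markers' cells in the level of Mfsd2a was not tested. Mfsd2a fell (log2FC -0.95 ± 0.32, adjusted p = 0.0448), and the call was lost on leaving out any library but SCI replicate 1. Abcb1a, the efflux pump P-glycoprotein, was at 44.4, 46.3 and 45.02 CPM in Sham, 22.7, 36.1 and 33.5 in SCI and 42.4, 35.8 and 35.5 in SCI + SCS, lower in SCI (log2FC -0.57 ± 0.18, adjusted p = 0.0348). Its row overlaps those of its near copy Abcb1b and of Abcb4, so its counts are uncertain where reads match more than 1 of them. The call was lost without any 1 of the Sham libraries or SCI replicate 3, and with all libraries in limma on FPKM (adjusted p between 0.0756 and 0.110 over 3 settings).

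Slc2a1, Slc7a5 (a carrier of large amino acids) and Bsg were not called. Bsg was at 538, 531 and 559.9 CPM in Sham, 621, 675 and 941 in SCI and 617, 500.2 and 518 in SCI + SCS, above Sham in all SCI libraries, with an adjusted p of 0.0717, and between 0.0368 and 0.189 over 14 alternatives. Of 20 other genes of transport and vesicle transport, 5 were higher and 6 lower, shares near those of all genes, with a median of 0.26. Tfrc, the transferrin receptor, fell from 111 to 113 CPM in Sham to 32.000 to 42.2 in SCI (log2FC -1.58 ± 0.13, adjusted p = 0.00105). Slc19a3, a thiamine transporter of barrier endothelium, fell from 2.62 to 4.51 CPM to 0.289 to 0.681 (log2FC -2.80 ± 0.40, adjusted p = 0.00287). Slc3a2, the partner chain of Slc7a5, rose from 183 to 215 CPM to 348 to 393 (log2FC 0.89 ± 0.11, adjusted p = 0.00189), and Ager, a receptor that carries amyloid peptides inward, rose (log2FC 1.21 ± 0.29, adjusted p = 0.0138).

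Of the 4 genes of the endothelial surface and storage granules, 2 were higher, against 24.3% of all genes. Emcn, endomucin of veins and capillaries, was at 10.2, 10.4 and 10.4 CPM in Sham, 15.8, 14.8 and 17.2 in SCI and 14.9, 12.9 and 11.98 in SCI + SCS. It was the steadiest member among Sham rats and rose (log2FC 0.60 ± 0.11, adjusted p = 0.00629), a call that held with each library left out. Cd34, a sialomucin of endothelium and of some fibroblasts and progenitors, was at 3.52, 4.6996 and 6.73 CPM in Sham, 8.28, 14.1 and 10.5 in SCI and 8.78, 19.3 and 12.3 in SCI + SCS. The SCI libraries were all above Sham (log2FC 1.12 ± 0.30, adjusted p = 0.0212), and the call was lost without Sham replicate 2, SCI replicate 2 or SCI replicate 3. Plvap, the diaphragm protein of leaky vessels that barrier endothelium keeps off, was at 10.3, 9.603 and 6.49 CPM in Sham, 8.25, 8.499 and 11.6 in SCI and 6.54, 8.83 and 6.26 in SCI + SCS. It overlapped between all groups, with an adjusted p of 0.798 in SCI against Sham and between 0.534 and 0.830 over 14 alternatives. Vwf, von Willebrand factor, was at 83.5, 113 and 97.8 CPM in Sham, 88.02, 102 and 83.4 in SCI and 88.9, 103 and 115 in SCI + SCS, and overlapped too.

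Among the transcription factors, only Lef1 passed the test, of 6. Lef1, through which Wnt signals act on the genome, was at 10.1, 9.05 and 10.4 CPM in Sham, 15.6, 15.7 and 11.4 in SCI and 15.8, 15.4 and 15.003 in SCI + SCS. It rose (log2FC 0.52 ± 0.17, adjusted p = 0.0392), and the call was lost without Sham replicate 1, 2 or 3 or SCI replicate 1 or 2, and with all libraries in limma on FPKM (adjusted p between 0.0510 and 0.0738 over 3 settings). Lef1 is also made by T lymphocytes, whose 6 markers were at 7.204 to 9.58 CPM in Sham, 32.9 to 33.6 in SCI and 15.05 to 22.3 in SCI + SCS; their part in this result was not tested. Sox17 was at 11.01, 9.05 and 8.29 CPM in Sham, 14.6, 11.2 and 12.1 in SCI and 13.2, 13.9 and 12.1 in SCI + SCS, with every SCI library above Sham and an adjusted p of 0.0985. Sox18 was at 17.8, 14.7 and 13.5 CPM in Sham, 27.3, 16.6 and 20.9 in SCI and 19.6, 23.9 and 19.01 in SCI + SCS. Erg, a factor that keeps endothelial identity, was at 8.82, 7.61 and 7.29 CPM in Sham, 5.86, 8.27 and 5.62 in SCI and 7.197, 7.98 and 7.06 in SCI + SCS. Foxf2, a pericyte factor, and Foxq1, a barrier factor under Wnt control, were not called either, and the 5 uncalled factors had log2FCs from -0.55 to 0.47.

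In the Wnt pathway of the barrier, 4 of 15 other genes were higher and 4 lower, shares near those of all genes. Fzd6, a Frizzled receptor, rose (log2FC 1.21 ± 0.21, adjusted p = 0.00497), and so did Tcf7, a relative of Lef1 that is also a T lymphocyte gene (log2FC 0.82 ± 0.15, adjusted p = 0.00589). The ligand Wnt7b fell from 14.5 to 24.8 CPM in Sham to 6.83 to 11.5 in SCI (log2FC -1.21 ± 0.28, adjusted p = 0.0135), and Tspan12, a co-receptor for norrin, fell (log2FC -0.69 ± 0.18, adjusted p = 0.0187). Of 14 other endothelial transcription factors, 8 were higher and 2 lower, against 24.3% and 25.0% of all genes, with a median of 0.83. Lyl1, a factor of blood and endothelial cells, rose from 3.04 to 5.16 CPM to 19.7 to 22.9 (log2FC 2.43 ± 0.22, adjusted p = 0.00124), and Ets1, of endothelium and lymphocytes, rose too (log2FC 0.91 ± 0.12, adjusted p = 0.00231). Mecom, an arterial factor, fell (log2FC -0.999 ± 0.14, adjusted p = 0.00245) and so did Foxo1 (log2FC -1.33 ± 0.35, adjusted p = 0.0198).

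Leukocyte adhesion had the highest median log2FC of the 7 roles, 0.84, with 3 of 5 members higher, against 24.3% of all genes. Icam1 (ENSRNOG00000020679, chr8:19553645-19565438, plus strand, on mRatBN7.2) encodes the ligand of leukocyte integrins, on endothelium and also on macrophages, astrocytes and fibroblasts. It was at 6.26, 10.8 and 18.3 CPM in Sham, 43.2, 66.5 and 56.8 in SCI and 42.8, 33.4 and 28.8 in SCI + SCS. Every library of either injured group lay above every Sham library, and SCI rose against Sham (log2FC 2.22 ± 0.39, adjusted p = 0.00487). Vcam1, the ligand of integrin α4β1, also made by astrocytes and meningeal fibroblasts, was at 35.7, 34.9 and 39.4 CPM in Sham, 63.4, 71.5 and 63.9 in SCI and 54.4, 65.1 and 43.1 in SCI + SCS. Its rise (log2FC 0.84 ± 0.10, adjusted p = 0.00181) was smaller, and the Sham libraries were close together. Both calls held with each library left out in turn. Of the 3 genes with a match to the NF-κB-like motif printed above, these 2 rose and Pdgfb fell.

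The selectins were near the limit of detection. Selp, P-selectin of activated endothelium and platelets, had 0, 6 and 12 counts in Sham, 25, 63 and 87 in SCI and 6, 22 and 14 in SCI + SCS. Its log2FC of 3.48 ± 0.96 (SE, adjusted p = 0.0238) rests on few Sham counts, and DESeq2 gave a log2FC of 3.53. In 1 Sham library there was no count, which at 3 counts allows up to 0.04698 CPM. Selp was not called without Sham replicate 2, SCI replicate 2 or SCI replicate 3, nor in limma on log2(FPKM + 1) (adjusted p = 0.0593, and 0.0539 without a filter). The platelet markers summed to 2.87 to 5.52 CPM in Sham, 34.6 to 66.8 in SCI and 18.7 to 35.9 in SCI + SCS. Within SCI + SCS their sum was highest in replicate 1, where Selp was lowest. Against Sham, edgeR called Pf4 (log2FC 4.57, adjusted p = 0.00205) and Itga2b (log2FC 1.46, adjusted p = 0.00287) higher in SCI. Gp1ba went the other way and was not called (log2FC -1.53, adjusted p = 0.0868). In the injured libraries most of that sum was Pf4, which macrophages can also carry, while Ppbp was at 0 in 8 of the 9 libraries and Gp9 at 0 in 4. Sele, E-selectin of activated endothelium, had 23 to 34 counts in Sham, 10 to 14 in SCI and 13 to 22 in SCI + SCS, with an adjusted p of 0.0539 in SCI against Sham. Icam2 was not called.

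Among the genes listed for the vascular basement membrane, the sheet of collagen IV and laminin on which endothelium and pericytes sit, 13 of 14 were higher in SCI. The other was lower, and the median log2FC was 1.25. Of all genes, 24.3% were higher and 25.0% lower. Lamb1 rose from 34.4 to 66.1 CPM in Sham to 145 to 194 in SCI (log2FC 1.66 ± 0.26, adjusted p = 0.00351), and Lama1, a laminin chain of the outer, glial and meningeal layer, rose too (log2FC 1.68 ± 0.25, adjusted p = 0.00298). Sparcl1, listed here although it encodes neither a collagen IV nor a laminin chain, fell (log2FC -0.54 ± 0.15, adjusted p = 0.0236). Fibroblasts make many of these proteins too, and 7 of their 10 markers were called higher. With 1 library left out, between 7 and 12 of the 14 were higher, with 7 without Sham replicate 2, SCI replicate 2 or SCI replicate 3. Of 9 genes of the astrocyte endfeet that cover the vessels, 1 was higher (Gjb6, a connexin, a log2FC of 0.60 ± 0.12 (SE, adjusted p = 0.00703)) and 3 were lower. Kcnj10, the potassium channel Kir4.1, fell from 508 to 529 CPM to 109 to 181 (log2FC -1.92 ± 0.20, adjusted p = 0.00143), and Hepacam fell too (log2FC -0.76 ± 0.13, adjusted p = 0.00471).

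Set against 5 genes of endothelium at large (Pecam1, Cdh5, Tie1, Esam and Erg), the members spread in both directions. The mean log2 CPM of these 5 was 4.55 ± 0.04 (SD, n = 3) in Sham, 4.98 ± 0.09 in SCI and 4.91 ± 0.11 in SCI + SCS, and Cdh5 and Tie1 were themselves called higher in SCI, so the scale itself moved. Relative to it, as a difference of log2 CPM and with no test, Slco1c1 changed by -1.53 from Sham to SCI, Flt1 by -1.48, Pdgfb by -1.47 and Mfsd2a by -1.45, while Anpep changed by 3.07 and Icam1 by 1.91. Slc2a1 and Slc7a5, which had not passed the test as levels, lay at -0.65 and -0.66, and Cldn5 at -0.16.

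Between SCI + SCS and SCI, none of the 39 members passed an adjusted p of 0.05 in edgeR, as was the case for all but 1 of the 17663 genes tested (0.00566% called). The lowest adjusted p of a member was 0.0774, for Anpep. At an unadjusted p under 0.05, 4 members were higher in SCI + SCS and 7 lower, against 13.3% and 10.9% of all genes. DESeq2 called 1 member higher, Slco1c1, and 5 lower, Angpt1, Angpt2, Anpep, Icam1 and Selp, where it called 8.83% and 6.90% of the genes it tested. On simulated data for this comparison both tools made false calls, DESeq2 more than edgeR. Those data were drawn with edgeR's own estimates of spread, so they cannot decide between the tools here. The 3 libraries of one group lay wholly above those of the other for 6 members in SCI + SCS and 8 in SCI, against 15.6% and 13.9% of all genes. By each of these 3 counts the members' share lay at or below the background in the higher direction and above it in the lower. The 3 counts use the same libraries, overlap in their genes and each rest on few members. The gap from the background was not tested. Without any 1 library the edgeR count remained 0. These values use the same SCI libraries as the comparison with Sham, so a member that by chance was high in SCI is high in one and low in the other.

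Among the members lower in SCI + SCS, Anpep was at 61.1 to 102 CPM in SCI and 34.5 to 46.7 in SCI + SCS, with no overlap (log2FC -1.08 ± 0.21, adjusted p = 0.0774). Its adjusted p was 4.42e-05 in DESeq2 and went up to 0.291 over 14 alternatives. Icam1 was lower (log2FC -0.66 ± 0.20, adjusted p = 0.119), with SCI + SCS replicate 1, at 42.8 CPM, just under the lowest SCI library, at 43.2. The angiopoietins were both lower, Angpt1 (log2FC -0.48 ± 0.14, adjusted p = 0.118) and Angpt2 (log2FC -0.74 ± 0.23, adjusted p = 0.127). DESeq2 gave adjusted p-values of 0.0275, 0.0233 and 0.0179 for Angpt1, Angpt2 and Icam1, and over 14 alternatives the adjusted p-values went up to 0.411, 0.353 and 0.343. Selp had 25 counts or more in each SCI library and 22 or fewer in each SCI + SCS library (log2FC -1.98 ± 0.66, adjusted p = 0.138). Tie1 (log2FC -0.22 ± 0.08, adjusted p = 0.164) and Bsg (log2FC -0.44 ± 0.18, adjusted p = 0.188) were lower at an unadjusted p under 0.05 and without overlap, and were not called by DESeq2 either. The fibroblast and meningeal sum was 15461 to 37565 CPM in SCI and 8206 to 16150 in SCI + SCS, and the macrophage and microglial sum was lower in SCI + SCS too, without overlap. Their part in these differences was not tested.

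On the higher side, Slco1c1 was at 25.1 to 45.2 CPM in SCI and at 48.8 or more in SCI + SCS (log2FC 0.69 ± 0.21, adjusted p = 0.121), with a DESeq2 adjusted p of 0.0225. Flt1, at 17.8 to 25.3 CPM in SCI and 27.7 to 35.6 in SCI + SCS, was higher (log2FC 0.49 ± 0.16, adjusted p = 0.142). Pdgfb and Esam, named here after their values were seen, were the other 2, with a log2FC of 0.64 ± 0.22 (SE, adjusted p = 0.149) and a log2FC of 0.24 ± 0.09 (SE, adjusted p = 0.173). Their libraries did not overlap either. Slc2a1 and Sele were also separate between the groups without reaching an unadjusted p of 0.05. The transporter Mfsd2a and the junction gene Cldn5 overlapped, with adjusted p-values of 0.713 and 0.910. By role, the median log2FC was -0.28 for leukocyte adhesion, -0.23 for mural genes, -0.11 for angiogenic signaling, 0.15 for transcription factors and 0.25 for transport, where that of all genes was -0.01. None of the 8 lists of other vascular genes held a called gene in this comparison. The list medians were -0.41 for the basement membrane and 0.39 for the astrocyte endfeet.

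Compared with Sham, 8 of the 38 members tested were upregulated in SCI + SCS and 4 downregulated, against 16.2% of all 17640 genes in the higher and 16.2% in the lower direction. Selp did not pass the filter on low counts. The higher genes were Tie1 (log2FC 0.60 ± 0.11, adjusted p = 0.0112), Eng, Anpep (log2FC 2.35 ± 0.33, adjusted p = 0.00634), Cd34, Sox17, Lef1, Icam1 (log2FC 1.57 ± 0.38, adjusted p = 0.0241) and Vcam1. Sox17 was called here and not in SCI against Sham, and both comparisons share the Sham rats. The lower genes were Vegfa (log2FC -0.89 ± 0.19, adjusted p = 0.0179), Flt1 (log2FC -0.57 ± 0.15, adjusted p = 0.0329), Rgs5 (log2FC -0.64 ± 0.16, adjusted p = 0.0274) and Mfsd2a (log2FC -0.72 ± 0.14, adjusted p = 0.0145). Pdgfb, Slco1c1, Abcb1a, Cdh5, Angpt1, Angpt2, Pdgfrb and Emcn, which were called in SCI, did not pass edgeR's test here. DESeq2 called Abcb1a lower (adjusted p = 0.0487), and Pdgfrb (adjusted p = 0.0172) and Emcn (adjusted p = 0.0244) higher. The SCI + SCS libraries of Pdgfb, Slco1c1 and Abcb1a lay wholly below Sham and those of Pdgfrb and Emcn wholly above. Those of Cdh5, Angpt1 and Angpt2 overlapped Sham. Not passing the test is therefore not a return to the Sham level. In the direct comparison of the injured groups edgeR called none of these 8 and DESeq2 called Slco1c1, Angpt1 and Angpt2. The counts depended on single libraries: the number lower was 0 without Sham replicate 2 or SCI + SCS replicate 1, 1 without SCI + SCS replicate 2 and 2 without Sham replicate 1 or SCI + SCS replicate 3, and the number higher was 4 without Sham replicate 2 or SCI + SCS replicate 2 and 5 without SCI + SCS replicate 1. The calls of Tie1, Eng, Anpep and Lef1 held with each library left out. With all libraries kept, and leaving aside the replicate block given at the end, the call of Flt1 was lost in limma on log2(FPKM + 1) without a filter (adjusted p = 0.0704). That of Mfsd2a was lost with all 9 libraries in 1 edgeR fit (adjusted p = 0.0882) and that of Sox17 without the filter on low counts (adjusted p = 0.0608).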

How the data were processed

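Counts were made by the authors from mRNA enriched with oligo(dT) beads and read from both ends on the DNBSEQ-T7 platform. The submitters' processing notes name fastp 0.23.2 (trimming), HISAT2 2.2.1 and the build mRatBN7.2, while the counting program is not given in the sources used here. The authors deposited the counts as they were, not normalized, beside FPKM values, which scale each count by the length of the gene and the depth of the library. No column of per-sample values was left unmapped, so no sample of another series was present. Rats were grouped by the labels, which name a single batch.

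The 6 libraries of the groups compared were fitted with edgeR 4.0.16 under R 4.3.3 (TMM, the default filter on low counts, no covariates, quasi-likelihood test), with Benjamini-Hochberg adjustment over all genes tested. The SE of a log2FC is its size over the square root of F. CPM used TMM over all 9 libraries, and FPKM served for levels between genes and, in limma 3.58.1, for alternatives as log2(FPKM + 1) and log2(FPKM + 0.1), a scale on which low genes change less. DESeq2 1.42.0, the tool that the study's methods name, was the first alternative. The tests were tested on simulated data, drawn with edgeR's own estimates of spread. There DESeq2 recovered more of the changed genes than edgeR and also made more false calls, in each of the 3 comparisons. Both tools made some false calls. The p-values measure the spread between 3 rats a group, and limits at 3 counts cover counting error only, since the reads carry no molecular identifiers.

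The members and lists were chosen with earlier results of these data known. Members with values in every library were those called between SCI + SCS and SCI by either tool, up to 4 a role with the smallest adjusted p between SCI and Sham, and Cldn5, Pecam1 and Pdgfrb. From each list of other genes up to 2 a direction were named by that adjusted p. The result of 1 gene so chosen is not reported here. Same-numbered rats are different animals. Beside the lists reported above, summed markers were compared between Sham, SCI and SCI + SCS for pericytes (112 to 190.1 CPM in Sham, 279 to 306 in SCI and 189 to 234 in SCI + SCS), the 5 reference genes (129 to 156 CPM in Sham, 216 to 242 in SCI and 174 to 232 in SCI + SCS), lymphatic endothelium (86.3 to 168 CPM in Sham, 252 to 282 in SCI and 239.8 to 293 in SCI + SCS), erythrocytes (11.4 to 61.7 CPM in Sham, 36.2 to 143 in SCI and 42.97 to 103 in SCI + SCS), adipocytes (2.82 to 8.93 CPM in Sham, 86.9 to 115 in SCI and 26.6 to 42.8 in SCI + SCS), Schwann cells (5055 to 7669 CPM in Sham, 9143 to 13280.5 in SCI and 7178 to 15064 in SCI + SCS), astrocytes (3642 to 7190.0 CPM in Sham, 5826 to 9031 in SCI and 8920.1 to 11646 in SCI + SCS) and oligodendrocytes (57991 to 82229.9 CPM in Sham, 17159.8 to 32617 in SCI and 30229.6 to 35864 in SCI + SCS). Such sums follow their most abundant genes. Most of the pericyte sum in SCI was Vtn, at 210, 196 and 242 CPM, and the median log2FC of the 6 pericyte markers against Sham was 0.02. That median was -0.55 for 6 astrocyte markers (0 higher, 2 lower) and -0.45 for 5 lymphatic markers (2 higher, 1 lower).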

Additional observations from a re-analysis of the deposited data

How the results depend on the processing

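No log2FC changed direction under the alternatives among the called members, the 11 members named between SCI + SCS and SCI and the 30 genes of other lists. Directions were not compared for the members that were not called, nor for medians. Of the calls of members in SCI against Sham, 147 of 160 results under alternatives that keep all libraries stayed past the threshold, and 83 of 120 with a library left out; in SCI + SCS against Sham these were 84 of 96 and 41 of 72. The 30 genes of other lists kept their calls under all such alternatives, and lost 9 of 180 with a library left out. Requiring a fold over 2 left 8 members higher and 3 lower in SCI against Sham, and 3 and 0 in SCI + SCS against Sham. DESeq2 called 1 member higher and 5 lower in SCI + SCS against SCI, where edgeR called 0 and 0. On simulated data for this comparison both tools made false calls, DESeq2 more. As those data used edgeR's estimates of spread, they cannot decide between the tools, and the cause of the difference was not tested. With a library left out, 7 to 12 members were higher and 3 to 7 lower in SCI against Sham, 4 to 9 and 0 to 4 in SCI + SCS against Sham, and 0 in SCI + SCS against SCI. Leaving out a library also leaves fewer samples to estimate the spread.

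With the replicate number as a block (replicate block), 3 members were higher and 0 lower in SCI + SCS against Sham, and the other counts moved by less than 1.5 times. Tie1, Eng and Anpep kept their calls there (adjusted p = 0.0471, 0.0464 and 0.0462). The other 9 members called in that comparison, Lef1, Icam1, Vcam1 and Vegfa among them, lost theirs. The numbers did not pair the rats: the correlation between libraries of 1 number, after their group means were taken off, was -0.09 to 0.14 for SCI and Sham, -0.11 to -0.04 for SCI + SCS and SCI and -0.22 to 0.01 for SCI + SCS and Sham, and 2, 0 and 0 of the 3 numbers correlated best within themselves.

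At these depths the limit of 3 counts bears only on the selectins, and the number of rats limits the rest.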
